A study of Schizosaccharomyces pombe with 127 samples.

Results

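Of 127 fission yeast (Schizosaccharomyces pombe) arrays analysed here, 4 carry the names of the checkpoint kinases cds1 and chk1. They were chosen by the strain name in the array title alone: 1 array labelled cds1 and 1 labelled chk1 from cells growing in minimal medium with nitrogen (0 min), and 1 of each after 60 min without nitrogen. The labels call both strains kinase deletions and give the time. The sources used here do not give the deletion allele, the parent strain or its markers. They were set against the other strains with 1 deleted gene, most of them a kinase gene, of which 61 had an array at 0 min, 60 an array at 60 min and 60 both. One wild-type array per time was described beside them; the one at 60 min is titled wild type although another label field calls it a kinase deletion. On every array the RNA of a strain was labelled with Cy5 and that of a common pool of wild-type cells with Cy3, so each level below is a log2 ratio of the strain to that pool, centred on the array median and averaged over the 2 probes of a gene. A strain has 1 array per time, so a value for 1 strain has no replicate, and p-values measure the spread between strains.

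Cds1 and Chk1 are the effector kinases of the S phase and DNA damage checkpoints. The sensor kinase Rad3 activates Cds1 at stalled replication forks through the mediator Mrc1, and Chk1 at damaged DNA through the mediator Crb2; both effectors hold cells out of mitosis by acting on the Cdc25 phosphatase and the Wee1 and Mik1 kinases that set the activity of Cdc2. Cds1 signalling also keeps the transcription factor MBF active, which drives genes of the G1 to S transition, and fission yeast cells starved of nitrogen divide at a smaller size and arrest in G1. The labels name no DNA damaging agent and no replication block.

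The level of each deleted gene was read first, because it checks the labels. The gene cds1 had a level of -1.20 in the cds1 array at 0 min, against a lowest of -0.41, a median of 0.10 and a highest of 0.75 in the 61 other deletion arrays. At 60 min its level was -2.53, against a lowest of -0.30, a median of 0.74 and a highest of 1.46 in the 60 others. Both probes of the gene were lowest in the cds1 array at both times, with levels of -1.46 and -0.93 at 0 min and -2.04 and -3.02 at 60 min, and the groups did not overlap. From 0 to 60 min the gene had a median change of 0.55 in the other strains and a change of -1.33 in the cds1 strain.

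The gene chk1 was not low in the arrays labelled chk1. Its level there was -0.16 at 0 min, the 42nd lowest of 63 deletion arrays, among others that ran from -0.71 through a median of -0.22 to 0.27. At 60 min it was -0.49, the 25th lowest of 62, among others from -1.18 through a median of -0.41 to 0.03. The 2 probes gave different answers at 60 min: one read -0.09, the 59th lowest of 62, and the other -0.88, the 2nd lowest. In the array labelled chk1 at 0 min the same probes read -0.18 and -0.13, with ranks of 45 and 32. Wild type had -0.61 at 0 min and -0.49 at 60 min. A probe outside the deleted stretch of a gene would check nothing, and the labels do not say where in the gene they lie. The level of the gene therefore does not show the deletion that these 2 arrays are named for, and they are called the arrays labelled chk1 below. The plot of both genes in every array shows the 2 situations side by side.

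**Figure D1:**
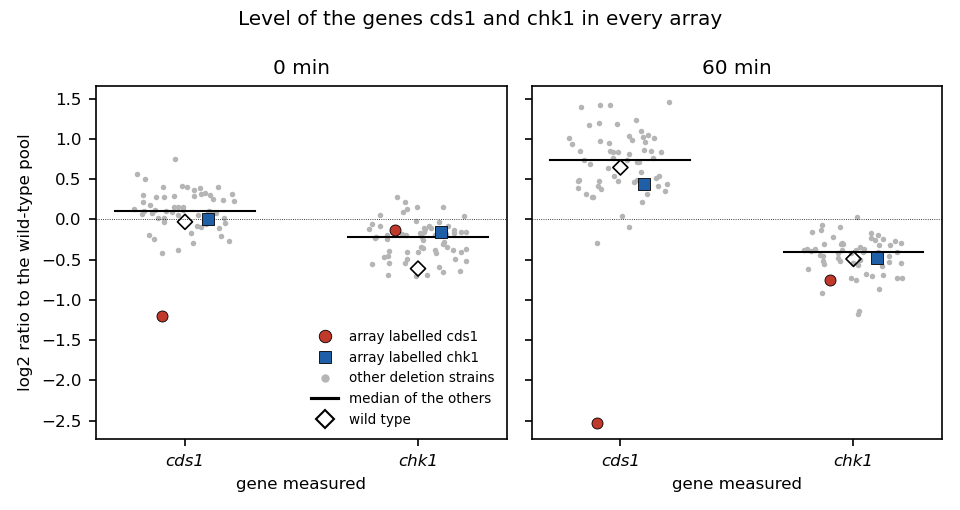
Level of the genes cds1 and chk1 (vertical axis, log2 ratio to the wild-type pool) in every deletion array at 0 and 60 min, with the arrays labelled cds1 (circle) and chk1 (square) marked, other strains in grey with their median as a line, and wild type as a diamond. The gene cds1 lies at -1.20 and -2.53 in its own arrays, below all others; the gene chk1 lies at -0.16 and -0.49 in the arrays labelled chk1, within the range of the others.

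The deleted genes of the other strains were read in these 4 arrays too. Of 61 other deleted genes with a probe, none was at its lowest in the cds1 arrays or in the array labelled chk1 at 0 min. In the array labelled chk1 at 60 min 4 were at their lowest once the array of the strain that lacks the gene was left out, hhp2, hri1, mak2 and spk1. Over all features, 138 of 4928 were at their lowest in that array, and 85 in the cds1 array at 60 min. The count of 4 was not tested against this share. The stress kinase gene hri1 was at 1.01 against 1.31 in the next lowest array, and the casein kinase gene hhp2 at 0.05 against 0.18. The pheromone pathway kinase gene spk1 was at 0.27 there against 0.32 in the next, and mak2, a histidine kinase gene, at -0.03 against 0.03. In their own arrays mak2 lay at -2.98, spk1 at -1.36 and hhp2 at -0.71, whereas hri1 was not low in its own, at 2.22 beside a median of 2.29. Which strain the arrays labelled chk1 hold was not tested further, and every result below is given for each strain alone.

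The arrays differed in spread. The SD over genes of the log2 ratios was 0.267 for cds1 and 0.236 for the array labelled chk1 at 0 min, both below the median of 0.31 over deletion arrays at that time. At 60 min it was 1.048 for cds1, the 56th lowest of 62, and 0.712 for the array labelled chk1, the 2nd lowest, against a median of 0.948. Agreement between the 2 probes of a gene was measured as a correlation across genes. At 0 min it was 0.616 for cds1 and 0.598 for the array labelled chk1, near the median of 0.62. At 60 min it was 0.864 for cds1, the 56th lowest of 62, and 0.82 for the array labelled chk1, the 13th lowest. The median there was 0.842, in a range from 0.778 to 0.882. The array labelled chk1 at 60 min thus had a smaller spread than 60 of the other arrays, and values under quantile normalization, which gives every array the same spread, stand beside the list values of this array where they differ. Genes of mating type and of auxotrophic markers lay within the range of the other deletion strains in all 4 arrays, although all 11 marker genes were below the mean of the others in cds1 at 0 min, by a median of -0.11. Of all 4929 features at 0 min, 2416 lay below the others in cds1 and 2063 in the strain labelled chk1. The M-factor precursor gene mfm1, for example, was at 0.60 for cds1 and 0.28 for the array labelled chk1 at 0 min, and the marker gene ura4 at -0.89 and -0.33.

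Taken as a pair, cds1 and chk1 had no gene at 0 min that passed the test against the other deletion strains. The limma fit of 2 strains against 61 called 0 of 4929 genes and unnamed features (0%) at an adjusted p under 0.05; the smallest adjusted p was 0.823, and 29 had an unadjusted p under 0.05. At 60 min the limma fit of 2 against 60 called 1 gene (0.0203%), cds1 itself, which was lower by -1.76 (SE 0.32, adjusted p = 0.00358), with 222 at an unadjusted p under 0.05. That call came from the cds1 array alone: the gene deviated by -3.25 from the mean of the others there and by -0.28 in the array labelled chk1. In the 60 minus 0 min change, which pairs the arrays of a strain, the limma fit called 0 genes (0%), with 85 at an unadjusted p under 0.05 and a smallest adjusted p of 0.999. With 2 strains the same fit was run on simulated data with 50 changed genes per effect size. It recovered 82% of genes changed by 1 on the log2 scale at 0 min, 92% at 60 min and 78% in the change. Of those changed by 0.5 it recovered only 54%, 34% and 24%. Each run also made false calls, 8, 12 and 9 of them. The adjustment is stricter where few genes change, so these shares do not carry over to the real data. There the gene cds1 itself was not called at 0 min, at -0.72 (SE 0.18, limma adjusted p = 0.823). Nor was it called in the change, at -1.04 (SE 0.28, limma adjusted p = 0.999). Shared differences near 2-fold could therefore have been missed too.

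Fitted alone against the others, which assumes that its single array varies as they do, the cds1 strain gave 1 limma call at each step, the gene cds1 itself, with adjusted p of 0.00159 at 0 min, 5.88e-09 at 60 min and 0.00828 in the change. The strain labelled chk1 gave 0 calls at each by limma.

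The sensors and mediators of the checkpoint lay close to the other strains in both. Of 21 measured members none differed by 1.5-fold at either time in either strain, where 0.913% of all features were at least 1.5-fold higher and 0.304% lower in cds1 at 0 min, and 1.93% and 4.04% at 60 min. For the strain labelled chk1 these shares were 0.73% and 0.0812% at 0 min, and 4.46% and 5.6% at 60 min. The list median in cds1 was above the others by 0.10 at 0 min and by 0.17 at 60 min, where its list mean was the 60th lowest of 61, beside a median of -0.05 over all genes. Against the 10 strains nearest in array number the 60 min median was 0.08. For the strain labelled chk1 it was 0.07 and 0.04. Of the members, the sensor kinase gene rad3 had levels of -0.22 in cds1 and -0.11 in the strain labelled chk1 at 0 min, among others from -0.73 through -0.20 to 0.60. At 60 min rad3 stood at 0.31 and 0.09, among others from -0.05 through 0.36 to 0.97. Both values lie inside that range.

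The mediators lay within the range of the others too. The gene mrc1, whose product carries the signal to Cds1, was at 0.24 and 0.03 at 0 min, against a median of -0.12. At 60 min it was at 0.93 in cds1 and 0.34 in the strain labelled chk1, among others from -0.19 through 0.52 to 1.28. The gene crb2, whose product carries the signal to Chk1, was at 0.23 and 0.25 at 60 min, among others from -0.15 through 0.29 to 0.58. The gene nbs1, of the complex that senses broken ends, had its highest level of 61 arrays in cds1 at 60 min, 0.71, against a next highest of 0.70 and a level of 0.20 in the strain labelled chk1.

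Most genes of the mitotic switch had lower levels at 60 min in both strains than in the others, without passing the test. Leaving out each strain's own deleted gene, 11 of 15 effector and cell cycle genes lay below the others in cds1, with a list median of -0.16, and 13 of 15 in the strain labelled chk1, with a list median of -0.28, or -0.25 under quantile normalization. Of all features, 57.1% lay below the others in cds1 and 52.4% in the strain labelled chk1 at 60 min. The list means were the 5th and the 2nd lowest of 61 strains. In the change the list medians were -0.22 in cds1 and -0.30 in the strain labelled chk1, or -0.15 and -0.10 under quantile normalization. After the line fitted to each strain's whole response, described below, was taken out, slope and constant together, they were -0.12 and -0.02. Over all genes these values were 0.03 and 0.16. Of the 16 genes of the list, the pair fit called 1 at 60 min, the deleted gene cds1. The mitotic inducer cdc25 was at -0.05 in cds1 and at 0.00 in the strain labelled chk1, the 2nd and 6th lowest of 61, while the others ran from -0.51 through 0.42 to 0.93. Its difference in the pair was -0.42 (SE 0.18, limma adjusted p = 0.852). At 0 min cdc25 was at -0.22 and -0.13, against a median of -0.15.

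The kinases that oppose Cdc25 gave a mixed picture. At 60 min wee1 was at 0.43 in cds1 and 0.19 in the strain labelled chk1, the 13th and 3rd lowest, among others from 0.14 through 0.58 to 1.10. The related kinase gene mik1 was at -0.33 and 0.05, the 9th and 45th lowest, among others from -0.74 through -0.12 to 0.62. Upstream of Wee1, the nutrient-sensing kinase gene cdr1 was at 0.88 and 0.33, the second of these the 2nd lowest of 61. The G1 regulators rum1, an inhibitor of Cdc2, and srw1, an activator of cyclin destruction, were at 0.62 and 0.81 in cds1. The strain labelled chk1 had rum1 at 0.10, the 2nd lowest, and srw1 at 0.02, the lowest of 61, where the others ran from 0.05 through 0.77 to 1.54. The srw1 difference of the pair was -0.32 (SE 0.25, limma adjusted p = 0.852).

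Targets of MBF lay near the other strains in cds1 and had lower levels at 60 min in the strain labelled chk1. In whole cultures, fewer cells in S phase and less RNA per cell cannot be told apart. At 0 min the 17 measured targets had a list median of -0.05 in cds1 and 0.05 in the strain labelled chk1, none of them 1.5-fold away. At 60 min the list mean was 0.77 in cds1, the 40th lowest of 61, with 10 targets above and 7 below the others. It was 0.38 in the strain labelled chk1, the 3rd lowest, against a mean of 0.73 over the others (SD 0.18). Of all features at 60 min, 57.1% lay below the others in cds1 and 52.4% in the strain labelled chk1. In the latter 14 of 17 targets lay below and 3 were at least 1.5-fold lower, beside 5.6% of all features. The list median there was -0.35 and became -0.03 under quantile normalization, and the SD over genes of this array was the 2nd lowest of 62. In the change the list median was -0.38. After the line fitted to the strain's whole response, described below, was taken out, slope and constant together, it was 0.00. Over all genes that value was 0.16.

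Single MBF targets lay on the low side at 60 min in the strain labelled chk1, cdc22, cdc18, cdt1 and cig2 among them. The ribonucleotide reductase gene cdc22 was at -0.14 in cds1 and 0.22 in the strain labelled chk1 at 0 min, against a median of 0.04. At 60 min cdc22 was at 1.03 and 0.89, the 12th and 6th lowest, among others from 0.18 through 1.27 to 2.59. The licensing factor gene cdc18 was at 1.25 and 0.96 at 60 min, among others from 0.42 through 1.32 to 2.09. Its partner cdt1 was at 1.33 and 0.59, the 55th and 11th lowest of 61, among others from 0.18 through 0.87 to 2.20. The S phase cyclin gene cig2 was at 0.85 and 0.55, the second of these the 4th lowest, among others from 0.07 through 1.03 to 1.52. None of these passed the test in the pair.

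The 3 targets at least 1.5-fold lower at 60 min in the strain labelled chk1 were cdt2, rad21 and srw1, described above. The gene cdt2, which directs the destruction of Spd1 and Cdt1, was at 0.22, the 2nd lowest of 61, against 0.82 in cds1 and others from -0.20 through 1.19 to 1.91. The cohesin subunit gene rad21 was at 0.36, the lowest, against 1.09 in cds1 and others from 0.47 through 1.07 to 1.71. The MBF co-repressor gene nrm1 was at 0.16, the 3rd lowest, against 0.70 in cds1 and a median of 0.59. The plot of S phase and mitotic entry genes shows these levels in every strain.

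**Figure D2:**
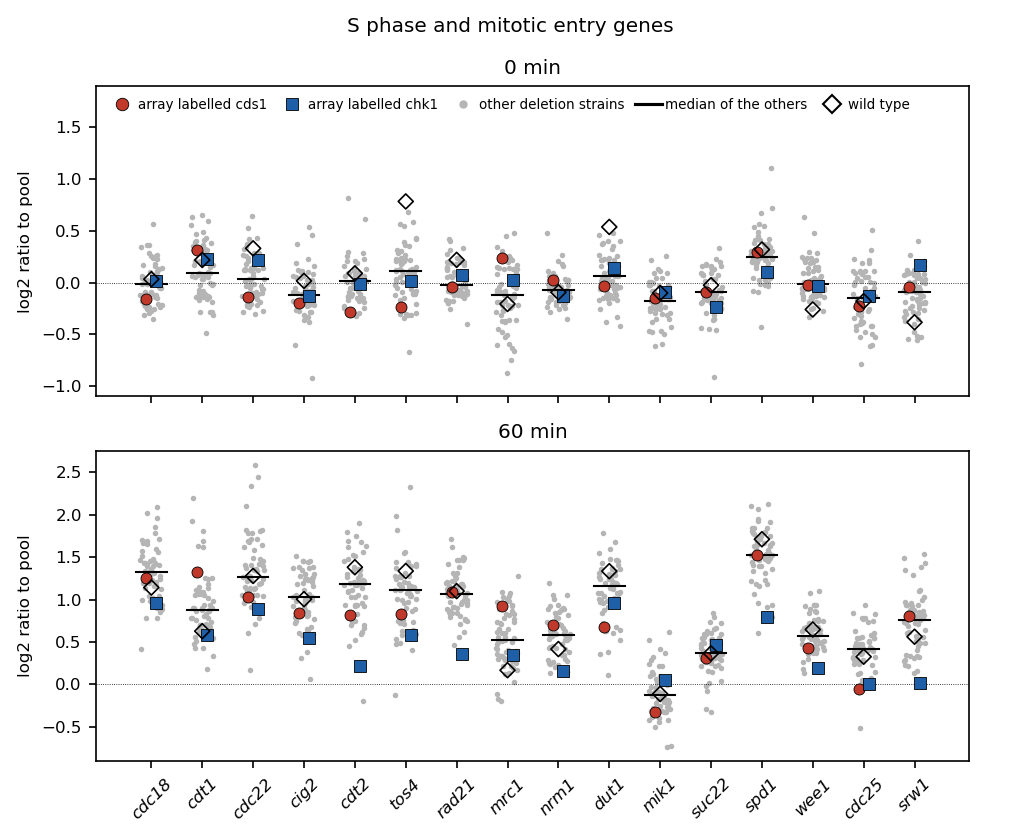
Levels (log2 ratio to the wild-type pool) of 16 S phase and mitotic entry genes at 0 min (top) and 60 min (bottom), with the arrays labelled cds1 (circles) and chk1 (squares), the other deletion strains in grey with their median as a line, and wild type as diamonds. At 0 min both strains lie among the others; at 60 min the array labelled chk1 is lowest for rad21 (0.36) and srw1 (0.02), and both strains are low for cdc25 (-0.05 and 0.00).

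Subunits of MBF and genes of nucleotide supply were on the low side at 60 min in the strain labelled chk1 as well. Of 6 subunits and co-regulators of MBF none was 1.5-fold away at 60 min; the list mean was the 4th lowest of 61 there, with a list median of -0.24, or -0.22 under quantile normalization. The zinc finger activator gene rep1 was low in both, at -0.19 in cds1 and -0.26 in the strain labelled chk1, the 2nd lowest and the lowest, among others from -0.24 through 0.08 to 0.53. Its pair difference was -0.33 (SE 0.14, limma adjusted p = 0.852). The DNA-binding subunit gene res1 was low in cds1 alone, at -1.39, the 4th lowest, against -0.76. Of 10 genes of nucleotide supply 8 lay below the others in the strain labelled chk1 at 60 min and 5 in cds1. Of all features 52.4% and 57.1% did. In the strain labelled chk1, 2 of 10, cdt2 and spd1, were at least 1.5-fold lower, beside 5.6% of all features. The list mean was the 3rd lowest of 61 there, but the list median of -0.13 became 0.01 under quantile normalization. The inhibitor of ribonucleotide reductase spd1 was at 1.52 in cds1 and at 0.80 in the strain labelled chk1, the 3rd lowest, among others from 0.60 through 1.53 to 2.13. The small subunit gene suc22 was at 0.32 and 0.46, near the median of 0.38.

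As lists, replication and repair genes differed by small amounts at either time, but some of their list means ranked high among the strains. Of 25 licensing and initiation genes none was 1.5-fold away in either strain at 0 or 60 min, and the list medians ran from -0.01 to 0.09. Of 28 elongation genes 22 lay above the others in cds1 at 0 min and 17 at 60 min, with list medians of 0.09 and 0.14. The second was 0.06 against the 10 strains nearest in array number. In the strain labelled chk1 the 60 min median was 0.11, or 0.04 under quantile normalization. The list means at 60 min were the 59th lowest of 61 in cds1 and the 56th in the strain labelled chk1 (SD of the others 0.06). One elongation gene, cdm1, a subunit of DNA polymerase delta, was 1.5-fold higher in cds1 at 60 min, at 1.48, the 56th lowest, against 0.32 in the strain labelled chk1 and a median of 0.80. The helicase subunit gene mcm2 was the 2nd lowest of 61 in cds1 at 60 min, at -0.28, among others from -0.30 through 0.07 to 0.54. The strain labelled chk1 had mcm2 at -0.01.

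The repair lists sat slightly above the other strains. The 26 homologous recombination genes had list medians of 0.10 and 0.08 in cds1 and of 0.07 and 0.02 in the strain labelled chk1 at 0 and 60 min, and none was 1.5-fold away. The last of these medians became 0.13 under quantile normalization. At 60 min the list means were the 58th lowest of 61 in cds1 and the 52nd in the strain labelled chk1 (SD of the others 0.07). The nuclease gene exo1, which resects broken ends, was at 0.25 and 0.18 at 0 min, the 60th and 58th lowest of 62, among others from -0.81 through -0.18 to 0.34. At 60 min exo1 was at -0.07 and 0.23, the 51st and 59th lowest of 61. The helicase gene srs2 was the 57th lowest of 62 in both at 0 min, at 0.16 and 0.18, among others from -0.69 through -0.12 to 0.29. Neither was called in the pair.

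Among the repair genes listed, mag2 was furthest apart between the 2 strains at 60 min, by 1.85. The DNA glycosylase gene mag2 was at -0.18 in cds1 and 0.31 in the strain labelled chk1 at 0 min, among others from -2.32 through 0.00 to 0.69. At 60 min it was at 2.45 in cds1, above all others, which ran from 0.25 through 1.25 to 2.21. In the strain labelled chk1 it was at 0.60, the 4th lowest of 61. The alkylation repair gene atl1 did the reverse: it was at 0.18 in the strain labelled chk1 at 60 min, above all others, which ran from -0.97 through -0.41 to -0.09, and at -0.39 in cds1. Of the 25 excision and mismatch repair genes, mag2 and atl1 among them, 2 were at least 1.5-fold higher in cds1 at 60 min, beside 1.93% of all features. In the strain labelled chk1, 1 was higher and 1 lower, beside 4.46% and 5.6%. At 60 min 42.9% of all features lay above the others in cds1 and 47.6% in the strain labelled chk1. Of the 23 damage tolerance and end joining genes 17 and 18 did, by list medians of 0.11 and 0.13. Their list means were the 55th and 56th lowest of 61. The 9 genes named for induction by ultraviolet light or damage had no member 1.5-fold away in either strain at either time.

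Core histone genes had levels near the others in both strains after starvation. The list mean of the 9 core histones at 60 min was 1.97 in cds1 and 1.94 in the strain labelled chk1, against 2.01 in the others with a range of 0.30 to 2.82. At 0 min all 9 lay below the others in cds1, by a list median of -0.15, with a list mean of 0.30, the 15th lowest of 62. Copies of a histone gene are alike in sequence, so levels of single copies are uncertain. Under quantile normalization the list median of the strain labelled chk1 at 60 min went from -0.07 to 0.64. The 13 regulators of histones had list medians from 0.02 to 0.07 in both strains and at both times.

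Genes of mitosis and septation had lower levels at 60 min in the strain labelled chk1. There 24 of 28 lay below the others, 5 of them at least 1.5-fold, beside 52.4% and 5.6% of all features. The list mean of 0.26 was the 4th lowest of 61 against 0.53 in the others (SD 0.17). The kinesin gene klp8 was at 0.07, the lowest, against 1.54 in cds1 and others from 0.17 through 0.98 to 1.73. The securin gene cut2 was at 0.69, the 4th lowest, against 1.54 in cds1 and a median of 1.40. The list median of -0.21 became -0.07 under quantile normalization. The 15 cohesin and condensin genes had list medians of 0.17 in cds1 and -0.13 in the strain labelled chk1 at 60 min, or 0.16 and -0.03 under quantile normalization. The septation kinase gene sid2 was at 1.02 in cds1 at 0 min, above all others, which ran from -0.85 through 0.22 to 0.70. At 60 min sid2 was at 2.33 in cds1, the 59th lowest of 61, and at 1.13 in the strain labelled chk1.

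Genes of early meiosis had higher levels in the strain labelled chk1 with nitrogen. All 20 lay above the others at 0 min, beside 58.1% of all features, by a list median of 0.29. The list mean of 0.12 was the 59th lowest of 62, against -0.15 in the others (SD 0.24). The recombination gene rec7 was at 0.44 there, the 61st lowest, against -0.32 in cds1 and others from -2.18 through -0.32 to 0.53. At 60 min 15 of 20 lay above, beside 47.6% of all features, by a list median of 0.22. Under quantile normalization the list medians were 0.26 and 0.20. In cds1 they were 0.03 and -0.02. For the 23 genes of mating and pheromone signalling the list median in that strain was -0.02 at 0 min and -0.11 at 60 min.

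**Figure D3:**
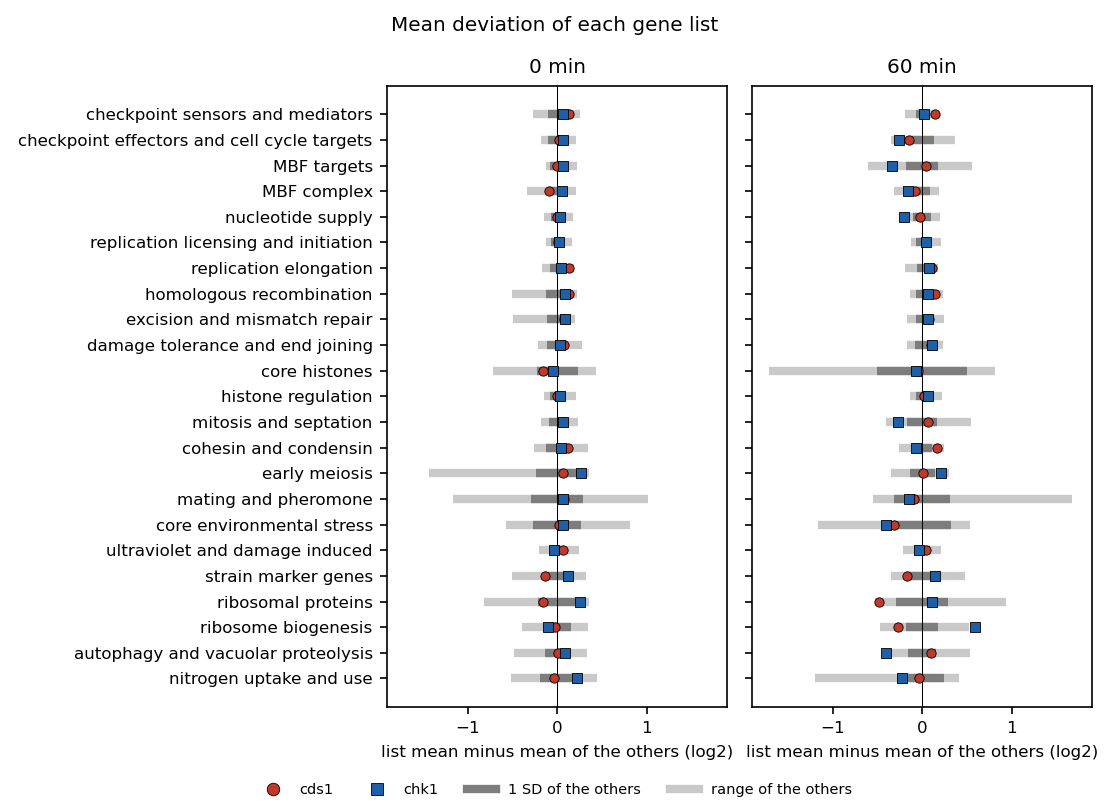
Mean log2 deviation of each gene list in the arrays labelled cds1 (circles) and chk1 (squares) from the mean of the other deletion strains at 0 min (left) and 60 min (right), each strain's own deleted gene left out. Dark bars show 1 SD and pale bars the full range of the other strains; at 60 min ribosome biogenesis in the array labelled chk1 lies above all others and ribosomal proteins in cds1 are the 3rd lowest.

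Lists of growth and starvation genes were read for comparison. Genes of ribosome biogenesis, at low levels after starvation in all strains, were at a list mean of -0.74 at 60 min in the strain labelled chk1, the highest of 61, against a mean of -1.33 in the others with a range of -1.80 to -0.81 (SD 0.18). Of 43 genes 41 lay above the others and 22 were at least 1.5-fold higher, beside 47.6% and 4.46% of all features. The pre-40S factor gene tsr1 was at -0.41, above all others, which ran from -2.50 through -1.66 to -0.62, and at -2.14 in cds1. The box C/D ribonucleoprotein gene nop56 was at -0.71, above all others, which ran from -2.71 through -1.88 to -1.27, and at -2.22 in cds1.

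This shift kept its direction under quantile normalization, with a list median of 0.24 in place of 0.59, and it was not seen with nitrogen. At 0 min 31 of the 43 genes lay below the others in the strain labelled chk1, beside 41.9% of all features, by a list median of -0.10. In the 60 minus 0 min change 27 of 43 were at least 1.5-fold higher, where 4.93% of all features were higher and 7.61% lower. The list median was 0.71, or 0.58 under quantile normalization. It was 0.72 after the fitted line was taken out, slope and constant together, beside 0.16 over all genes. In cds1 2 of the 43 were at least 1.5-fold lower in the change, where 0.751% of all features were higher and 1.79% lower. The genes rpa34 and rpa49 of RNA polymerase I were picked after their values were seen: rpa34 was at -0.41 and rpa49 at -0.57 at 60 min in the strain labelled chk1, each the 60th lowest of 61, against medians of -1.63 and -1.66.

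Ribosomal protein genes had low levels at 60 min in cds1 and levels near the others in the strain labelled chk1. Their list mean at 60 min was -2.82 in cds1, the 3rd lowest of 61, against a mean of -2.34 in the others (SD 0.29), with 117 of 126 genes below and 55 at least 1.5-fold lower. It was -2.23 in the strain labelled chk1, the 41st lowest, with a list median of 0.10 that became -0.11 under quantile normalization. At 0 min the list medians were -0.19 in cds1, with 99 of 126 genes below, and 0.32 in the strain labelled chk1, with 108 above. The acidic ribosomal protein gene rpp101 was at -4.82 in cds1, the lowest, among others from -4.29 through -3.51 to -2.22, and at -3.47 in the strain labelled chk1. The list median of -0.55 in cds1 became -0.07 under quantile normalization, and the SD over genes of that array was the 56th lowest of 62. In the change the list median of cds1 was -0.34, or 0.30 under quantile normalization. It was 0.04 after the fitted line was taken out, slope and constant together, beside 0.03 over all genes. For the strain labelled chk1 the change had a list median of -0.23, with 91 of 126 genes below, where 58.3% of all features were. It became -0.76 under quantile normalization. After the fitted line was taken out it was -0.47, beside 0.16 over all genes. Ribosomal protein genes come in near-identical copies, and their probes may read more than 1 copy.

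Autophagy and stress genes were at high levels after starvation. At 60 min autophagy genes stood lower in the strain labelled chk1, and core stress genes stood lower in both strains. In the latter strain, 26 of 29 autophagy and vacuolar proteolysis genes lay below the others in the array labelled chk1, and 10 at least 1.5-fold. Of all features 52.4% and 5.6% did. The list mean of 0.72 was the 2nd lowest of 61 there, against 1.13 in the others (SD 0.16). The protease gene atg4, which processes Atg8, was at 0.21, below all others, which ran from 0.54 through 1.80 to 2.68, and at 1.87 in cds1. The ubiquitin-like atg8 was at 0.60, the 2nd lowest, against 1.29 in cds1 and a median of 1.59. The autophagy list median of -0.43 became -0.10 under quantile normalization. In the change -0.52 became -0.07 after the fitted line was taken out, slope and constant together, beside 0.16 over all genes. In cds1 22 of the 29 lay above the others, beside 42.9% of all features, by a list median of 0.14. Core stress genes had list medians of -0.36 in cds1 and -0.27 in the strain labelled chk1 at 60 min, which became -0.34 and 0.07 under quantile normalization. Of 23 genes 19 lay below the others in cds1 and 18 in the strain labelled chk1. Of all features 57.1% and 52.4% did. In the change their list medians were -0.39 and -0.45, or -0.22 and -0.0 under quantile normalization. After the fitted line was taken out they were -0.49 and 0.01, beside 0.03 and 0.16 over all genes.

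The size of the whole starvation response was compared next. The change of a strain from 0 to 60 min was set against the mean change of the other strains over the genes changed at least 2-fold on average. The slope of the fitted line was taken as the size of its response. Where the fitted line was taken out above, its constant went with the slope. The slope was 1.11 in cds1, the 53rd lowest of 62 strains, and 0.81 in the strain labelled chk1, the 3rd lowest, where the 60 others had a mean of 1.00 (SD 0.11) and ran from 0.65 to 1.21. Only ppk22 at 0.65 and cyr1 at 0.66 lay below, and cdk11 at 0.82 lay just above. The mean of the pair, 0.96, did not differ from the others in an exact permutation test over all 1891 pairs of strains (two-sided p = 0.616; the smallest p it can give is 0.000529). The 2 slopes lay on opposite sides of the mean of the others and offset each other in the pair mean. The test therefore cannot say whether either strain alone differed. Under quantile normalization the slopes were 0.98 and 1.06, the 25th and 42nd lowest.

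**Figure D4:**
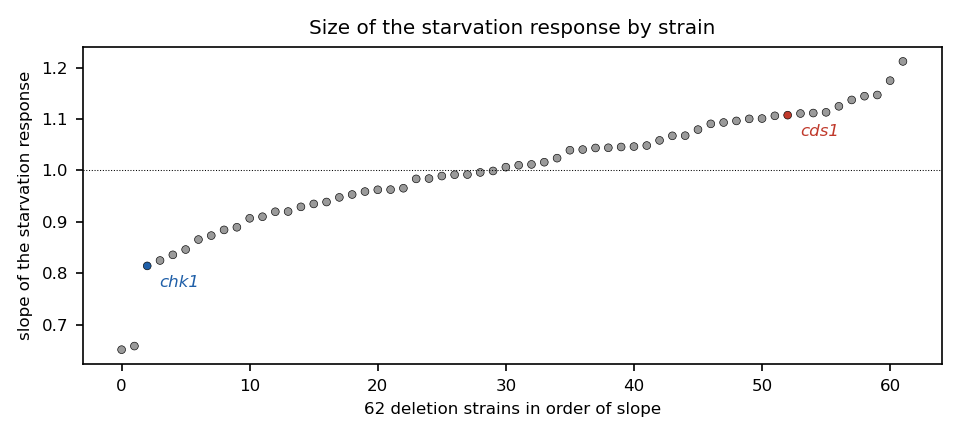
Slope of the starvation response (vertical axis, no unit) of the 62 deletion strains with both times, in order along the horizontal axis. The strain labelled chk1 lies 3rd from the bottom at 0.81 and cds1 53rd at 1.11; the dotted line marks 1.

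Genes with an average rise and genes with an average fall were then taken apart. Of 376 genes that rose at least 2-fold on average in the other strains, 362 (96.3%) changed less in the strain labelled chk1, the highest share of 62 strains, where the 60 others ran from 7.08% to 91.3% with a median of 48.3%. Their median change was 0.85 there against 1.45. Of 432 genes that fell on average, 253 (58.6%) changed less there, the 40th lowest share, with a median change of -1.44 against -1.65. In cds1 149 (39.6%) of the risen genes changed less, but only 34 (7.87%) of the fallen ones, the lowest share of 62 strains, with a median change of -1.93. Under quantile normalization the share of risen genes that changed less was 72.0% in the strain labelled chk1, the 54th lowest, and that of fallen genes in cds1 turned to 70.0%, the 52nd lowest. The part that the spread of each array plays in these shares was not tested beyond that comparison.

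**Figure D5:**
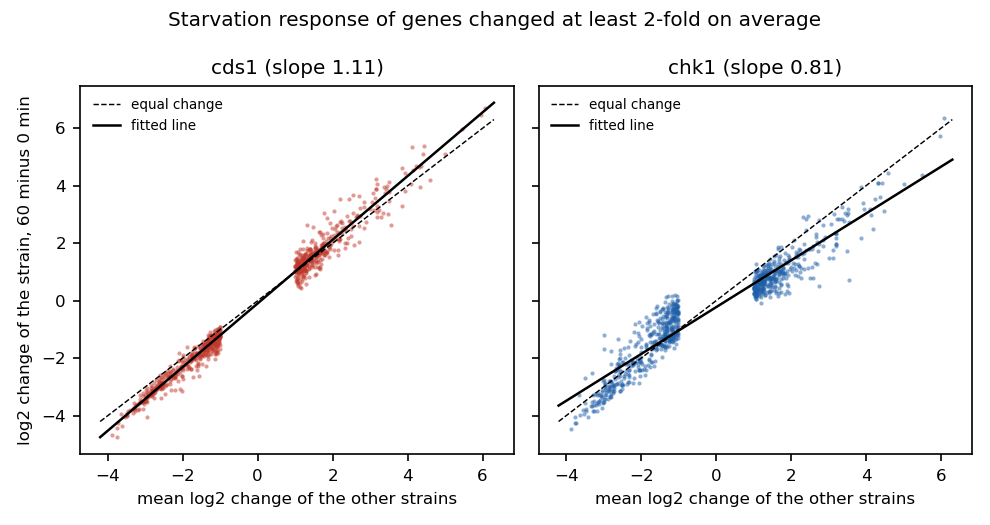
Change of each gene from 0 to 60 min (log2) in the strains labelled cds1 (left) and chk1 (right) against the mean change of the other strains, for genes changed at least 2-fold on average. The solid line is the fit (slope 1.11 and 0.81) and the dashed line marks equal change; on the right nearly all risen genes lie below the dashed line.

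Some features were 2-fold away from the other strains in 1 array, which has no replicate check. In cds1 these numbered 6 at 0 min, 4 higher (0.0812%) and 2 lower (0.0406%), and 34 at 60 min, 16 higher (0.325%) and 18 lower (0.365%). In the strain labelled chk1 there were 2 at 0 min, 1 each way (0.0203%), and 76 at 60 min, 23 higher (0.467%) and 53 lower (1.08%). The 60 others had a median of 15.5 at 0 min and 37.5 at 60 min, and at 0 min 11 strains had fewer than cds1 and 1 had fewer than the strain labelled chk1. Across genes the deviations at 0 and 60 min of 1 strain correlated at 0.62 in cds1, the 57th lowest of 62, and at 0.11 in the strain labelled chk1, the 10th lowest, with a median of 0.34 in the others. These values are a description; the 2 arrays of a strain share its genotype.

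In cds1 4 genes (0.0812%) were at least 2-fold away in 1 direction at both times: cds1 itself, dpm3, tma23 and SPBP22H7.04. The gene dpm3, of dolichol-linked mannose synthesis, was at 1.68 at 0 min and 1.65 at 60 min, the 61st lowest of 62 and the highest of 61. The gene tma23 was at 1.56 and 1.06, the 61st and 59th lowest. The gene SPBP22H7.04 was at -3.27 and -2.23, but it ranged from -3.32 to 1.63 over the other strains at 0 min. The strain labelled chk1 had 0 genes (0%) that were 2-fold away at both times.

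Further genes were named after their values were seen. The THO complex gene tho3, of messenger RNA export, was the highest of all strains in cds1 at both times, at 0.49 and 0.47, where the others reached 0.11 and 0.18, and it was at -0.28 and 0.01 in the strain labelled chk1. Its locus name, SPCC18B5.10C, is next in number to that of the deleted gene cds1, SPCC18B5.11C. Whether its level comes from the altered locus beside it or from the loss of the kinase was not tested. The TORC1 subunit gene tco89 was at -1.43 in cds1 at 60 min, below all others, which ran from -0.56 through 0.02 to 1.10, after -0.04 at 0 min, and at 0.49 in the strain labelled chk1. The ubiquitin fusion genes ubi1 and ubi2 were the lowest in cds1 at 60 min, at -3.32 and -3.43, against medians of -2.05 and -2.38.

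Also picked after their values were seen were 4 genes with large deviations at 60 min in the strain labelled chk1, frp1, ctr4, mug147 and SPAC869.03C. The ferric reductase gene frp1 was at -0.61 at 60 min, the 60th lowest of 61, among others from -3.63 through -2.32 to -0.59, and at -3.25 in cds1. The copper transporter gene ctr4 was at -0.85, also the 60th lowest, among others from -3.75 through -2.50 to -0.84, and at -2.81 in cds1. Among risen genes mug147 was at 0.45, the lowest, against a median of 2.60 and 3.91 in cds1. The gene SPAC869.03C was at 0.87, the 3rd lowest, against a median of 3.56 and 4.18 in cds1.

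Set directly against each other, cds1 and the strain labelled chk1 were at least 2-fold apart in 1 direction at both times for 2 features (0.0406%), cds1 and SPBP22H7.04, both higher in the strain labelled chk1. The gene cds1 was apart by -1.19 at 0 min and -2.97 at 60 min. Over all 1891 pairs of deletion strains the median number of such features was 15, and 60 pairs had fewer. At 60 min alone they were 2-fold apart for 268 features and at 0 min for 12.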

How the data were processed

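The deposited series table holds linear Cy5/Cy3 ratios for 9858 probes on 127 arrays, deposited by the authors, whose scaling and background correction the sources used here do not state; the dyes are those of the labels, and the number of arrays, not a depth, limits the precision. The 6 ratios of exactly 0 were set to missing (0 columns were left unused). Log2 ratios were centred on the array median and the 2 probes of a gene averaged, giving 4816 named genes and 113 unnamed features. Gene names came from GEO's platform annotation, updated with the ASM294v3 gene table; 9632 probes carried 1 symbol, 44 several and 182 none. Genes needed values in 80% of arrays.

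The pair was fitted with limma 3.58.1 in R 4.3.3 against the other deletion strains at each time and in the change, with Benjamini-Hochberg adjustment over all genes; fits were tested on simulated data with 50 changed genes per effect size. Python 3.11.15 ran the exact permutation test. The 0 and 60 min arrays were paired by strain name, which is the genotype. Array dates and batches were not given; array numbers served in their place. Alternatives covered normalization, probe level, filters, thresholds, reference strains and leaving out either strain.

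The members and the 23 gene lists were chosen with earlier results of these data known, and list values are descriptions with no test. The rule for named genes took the deleted genes, the largest pair calls, the features 2-fold away at both times, up to 4 members of each S phase, checkpoint, repair and histone list, and a fixed set of checkpoint genes; genes named beyond it, such as those of ribosome biogenesis, autophagy and mating, were picked after their values were seen. Of the listed names 23 had no single measured gene.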

Additional observations from a re-analysis of the deposited data

How the results depend on the processing

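At 60 min the single call of the pair, cds1, became 0 under quantile normalization, at the level of each probe, and against the 10 strains nearest in array number; leaving out cds1 or chk1 gave 0 to 1. The other 9 alternatives tried at 60 min kept cds1, with limma adjusted p from 0.00297 to 0.0101. At 0 min the count of 0 became 1 (cds1, lower by -1.01, limma adjusted p = 0.00663) under quantile normalization, and 0 to 1 when a strain was left out. In the change it became 1 under quantile normalization (sea4, higher by 0.90, limma adjusted p = 0.0271), 0 to 1 when a strain was left out, and stayed at 0 with no replicate block, that is without pairing the arrays of a strain. The 4 genes 2-fold away in cds1 at both times became 2 under quantile normalization, 2 where every probe had to pass and 35 at 1.5-fold; the 0 of the strain labelled chk1 became 8 at 1.5-fold. The 2 features apart between the strains became 1 where every probe had to pass and 92 at 1.5-fold. The pair slope of 0.96 became 1.02 under quantile normalization (exact p = 0.708), with the sign turned against the others, and ran from 0.82 without cds1 (exact p = 0.0656) to 1.1 without chk1 (exact p = 0.311). Of 168 list medians recomputed under 3 settings, chosen after seeing the data, 13 moved by more than the SD of the others and 7 changed sign, 2 of them from at least 0.2: in the strain labelled chk1 at 60 min, stress genes from -0.27 to 0.07 and nitrogen genes from -0.20 to 0.21, both under quantile normalization. Core histones there went from -0.07 to 0.64. The cause of these moves was not tested.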

Other observations

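Genes for the uptake and use of nitrogen, which the account above leaves aside, had high levels after starvation in both strains. At 60 min the list mean of 25 genes was 2.20 in cds1 and 2.02 in the strain labelled chk1, the 23rd and 6th lowest of 61, against 2.24 in the others (SD 0.24). The list median of -0.20 in the latter became 0.21 under quantile normalization. The uracil-regulated gene urg1 was at 6.46 and 6.38, against a median of 6.22. The amino acid permease gene isp5 was at 3.52 in cds1 and 2.74 in the strain labelled chk1, the 3rd lowest, among others from 2.53 through 3.78 to 5.10. With nitrogen, isp7 was high in both, at 0.96 and 0.84, the highest and the 61st lowest of 62, among others from -0.88 through 0.35 to 0.91.

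Among mating genes the transcript of ste7 was at 0.60 at 60 min in the strain labelled chk1, below all others, which ran from 0.83 through 1.72 to 2.93, and at 1.76 in cds1. Of 4928 features at 60 min 138 had their lowest and 168 their highest level of 61 arrays in the strain labelled chk1, and 85 and 41 in cds1. At 0 min these numbers were 2 and 14 of 62 arrays in the strain labelled chk1, and 6 and 12 in cds1. No such counts for the other strains stand beside these, so they do not show which of them is unusual.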
